A study of Mus musculus with 2 samples.

Results

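The vomeronasal receptor genes of the mouse were taken here as a family that bone marrow-derived macrophages are not known to use. Members were the protein-coding RefSeq genes of the mm10 build on chromosomes 1 to 19 whose symbol starts with Vmn1r or Vmn2r. The rule gave 354 of 20665 protein-coding genes, of which 231 were Vmn1r and 123 Vmn2r. A peak of open chromatin belonged to a member where its summit had that gene's end as the nearest protein-coding gene end within 100 kb. This took 834 of 68741 untreated peaks on these chromosomes (1.21%) and 296 of 36721 peaks after R848 (0.81%).

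Vomeronasal receptors detect pheromones and other chemical cues in the vomeronasal organ, a sensory pouch at the base of the nose. Each sensory neuron there is known to express few receptor genes and keep the others shut. Vmn1r genes encode short receptors read from a single coding exon, which act with the G protein subunit Gnai2 in the outer layer of neurons. Vmn2r genes encode receptors with a long ligand-binding head spread over several exons, which act with Gnao1 in the inner layer. Both kinds signal through the ion channel Trpc2.

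The data came from ATAC-seq, in which the enzyme Tn5 cuts open DNA and inserts sequencing adapters. Wild-type mouse macrophages were cultured from marrow in M-CSF, their growth factor, at 20 ng/ml. The untreated group was 1 library of these cells. The R848 group was 1 library of such cells after 2 h with 100 ng/ml of R848, a ligand of Toll-like receptor 7. The sources used here give no strain, age or number of mice. With 1 library in each group there is no replicate error and no test between groups. All intervals below are 95% intervals, Wilson for shares and exact Poisson for densities, and they cover counting error only. Where a count is 0, the limit given is instead that of 3 counts of the total.

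The untreated list held 77060 peaks and the R848 list 37725, so the lists differ in length before any gene is considered. The lists name no read totals. Solved from the deposited fold and p, the library-wide background was 0.968 tags without and 1.36 tags with R848, and the smallest peak had 4 and 5 tags. All 15 macrophage marker genes had a peak in the R848 list and 14 in the untreated list. Spi1, the gene of the macrophage factor PU.1, had 1 untreated and 6 R848 peaks, Csf1r, the M-CSF receptor, had 1 and 3, and the actin gene Actb had 4 and 4. Markers of other cells had a peak in either list as follows: 2 of 5 T cell genes, 4 of 5 B cell genes, 4 of 5 neutrophil genes, 5 of 5 stromal genes and all 6 sensory neuron genes that were on these chromosomes, while 19.8% of all genes had none. A peak in each list, at the same place or not, was found at 14 of 15 macrophage, 4 of 5 stromal and 2 of 6 sensory neuron markers. The same held at 2 of 5 T cell, 2 of 5 neutrophil and 0 of 5 B cell markers. Peaks that overlapped between the lists were found at no stromal, sensory neuron or B cell marker. They were found at Cd3d, S100a8 and S100a9, and at all macrophage markers but Fcgr1, Cd14 and Msr1. The R848 density was 2.21 times that of all genes at macrophage markers and 3.45 times at neutrophil markers. It was 1.06 times at stromal, 0.963 times at T cell, 0.462 times at B cell and 0.345 times at sensory neuron markers. A peak within 100 kb does not measure transcription.

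Sequence was available for the windows that reach from 250 bases before to 50 bases after an annotated gene start, from RefSeq on GRCm38.p6, the assembly behind mm10. There were 323 such windows for 322 members, and 32 members had none. The windows shown are those that a peak overlapped, followed by 1 window of each subfamily with many peaks around it and a motif of a macrophage factor. The Vmn2r29 window is the single member window with a peak in both lists, and its 250 bases before the start lie at chr7:7278290-7278539 on the minus strand. Capitals mark the 239 bases inside the R848 peak.
Vmn2r29: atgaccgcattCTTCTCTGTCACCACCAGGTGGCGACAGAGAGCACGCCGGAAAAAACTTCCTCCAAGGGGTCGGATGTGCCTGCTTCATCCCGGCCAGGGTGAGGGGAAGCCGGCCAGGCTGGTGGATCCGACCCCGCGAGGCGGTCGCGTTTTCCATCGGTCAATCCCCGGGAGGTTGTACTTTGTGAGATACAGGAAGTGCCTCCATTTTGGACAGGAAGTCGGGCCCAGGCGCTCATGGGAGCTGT
The Vmn1r131 window at chr7:21546041-21546340 and the Vmn1r260 window at chr7:23067407-23067706, both on the minus strand, were overlapped by R848 peaks alone. Capitals mark the 108 and 189 bases inside those peaks.
Vmn1r131: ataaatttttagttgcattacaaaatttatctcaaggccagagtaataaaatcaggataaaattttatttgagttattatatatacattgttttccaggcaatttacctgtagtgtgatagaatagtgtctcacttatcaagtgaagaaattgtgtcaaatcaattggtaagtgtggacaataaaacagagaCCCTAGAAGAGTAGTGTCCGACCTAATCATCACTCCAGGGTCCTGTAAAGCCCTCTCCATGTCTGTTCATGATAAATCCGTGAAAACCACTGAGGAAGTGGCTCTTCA
Vmn1r260: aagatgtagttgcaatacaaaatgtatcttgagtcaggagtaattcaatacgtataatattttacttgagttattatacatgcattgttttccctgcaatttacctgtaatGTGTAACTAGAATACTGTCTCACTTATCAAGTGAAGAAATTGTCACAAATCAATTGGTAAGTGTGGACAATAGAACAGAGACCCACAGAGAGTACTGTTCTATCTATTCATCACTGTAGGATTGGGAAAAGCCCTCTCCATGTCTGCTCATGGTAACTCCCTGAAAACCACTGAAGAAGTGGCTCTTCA
Vmn1r242, at chr7:20233779-20234078 on the minus strand, had 5 untreated peaks and 1 R848 peak in its surroundings and none on its window. Capitals mark the letters GAGGAAGT, a form of the PU.1 motif.
Vmn1r242: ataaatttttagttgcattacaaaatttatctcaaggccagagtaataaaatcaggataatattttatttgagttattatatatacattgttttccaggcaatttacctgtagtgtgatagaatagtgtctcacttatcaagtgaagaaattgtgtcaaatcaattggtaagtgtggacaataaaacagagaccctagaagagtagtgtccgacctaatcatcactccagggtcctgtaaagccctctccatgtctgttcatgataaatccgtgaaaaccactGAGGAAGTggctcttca
Vmn2r36, at chr7:7902413-7902712 on the minus strand, had 13 untreated and 5 R848 peaks in its surroundings and none on its window. Capitals mark TGAGTCA, the AP-1 motif TGACTCA read on the other strand.
Vmn2r36: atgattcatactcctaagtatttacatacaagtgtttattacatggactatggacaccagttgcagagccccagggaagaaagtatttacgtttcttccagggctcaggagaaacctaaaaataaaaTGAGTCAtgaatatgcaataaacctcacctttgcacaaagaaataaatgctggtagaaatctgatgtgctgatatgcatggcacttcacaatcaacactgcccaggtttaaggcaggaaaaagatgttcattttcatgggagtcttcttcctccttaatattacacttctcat
The Vmn1r131 and Vmn1r242 windows were equal at 299 of 300 bases, although the genes lie 1.31 Mb apart on chromosome 7. In all, 62 member windows were identical to the window of another member. Reads from such stretches cannot be placed with certainty, and the sources used here do not say how multiple matches were treated.

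The start windows of the family were almost free of peaks. An untreated peak overlapped 1 of 323 member windows (0.31%, interval 0.0547 to 1.73%), against 25.9% of the 20085 windows of all protein-coding genes. An R848 peak overlapped 3 of 323 (0.929%, interval 0.316 to 2.69%), against 35.6% of all windows. The odorant-sensing olfactory receptors had as few, with 4 untreated and 2 R848 overlaps in 942 windows. Member windows were poor in G and C, with a median of 36.7% against 57.0% for all genes, and had a median of 1 CpG against 14. Among the windows of other genes with at most 1 CpG, peaks were also rare, on 30 of 2019 in the untreated list (1.49%) and 42 of 2019 in the R848 list (2.08%). For 186 member windows with at most 1 CpG, the counts were 0 of 186, which allows a share of up to 1.61%, and 1 (0.538%, interval 0.095 to 2.98%). With at most 1 CpG, both limits reached the level of these other genes. The windows were matched in CpG alone, and those of members still had a lower median of G and C. The other genes included the olfactory receptors, and a comparison without them was not made.

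Vmn2r29 stood apart from the family at its start. With 23 CpG and 62.3% G and C, its window ranked first of 323 in both measures. The R848 peak at chr7:7277955-7278528 had a summit of 22 tags 80 bp outside the gene, a fold of 7.62 over its local background. The untreated peak at chr7:7278085-7278530 had 12 tags, with its summit 120 bp outside, and a fold of 4.96. Both are the only peaks of this gene in their lists. Vmn2r29 spans chr7:7212996-7278289 and lies between Zfp772, 2998 bp away, and Clcn4, 4020 bp away. A second annotated start of Vmn2r29, at the window chr7:7247279-7247578, had no CpG, 38.3% G and C, and no peak.

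The 2 R848 peaks on Vmn1r windows were small. The one at Vmn1r131 had 8 tags and a fold of 3.33, and the one at Vmn1r260 had 6 tags and a fold of 2.52. Neither had an untreated counterpart, and neither reached a q of 0.05.

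Most member models begin at the start codon. The letters ATG stood at the annotated start in 283 of 323 member windows (87.6%), against 7.65% for all genes, so the true transcription start of most members may lie farther upstream than these windows reach. Vmn2r29's window with the peak had no ATG there, and its second window had one. The other windows printed above had ATG at base 251.

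A set of 6 motifs were searched on both strands, as background to these windows and with no claim of binding. The letters GAGGAAGT (PU.1, the factor that sets macrophage identity) were in 74 of 206 Vmn1r windows (35.9%), 4 of 117 Vmn2r windows (3.42%) and 3.18% of all windows. In Vmn1r, 72 of the matches began at base 284 of the window, after the start codon, and the 74 windows held 43 distinct sequences. A peak lay on 1 of those 74 windows, that of Vmn1r131. TGACTCA (AP-1, which many stimuli activate) was in 31 of 117 Vmn2r windows (26.5%), 22 of 206 Vmn1r windows (10.7%) and 4.70% of all windows. In Vmn2r, 28 of those matches were on the strand opposite the gene, at a median of base 144. A peak lay on 0 of the 31 windows, which allows up to 9.68%. For PU.1 in Vmn2r a peak lay on 1 of 4 windows, that of Vmn2r29. For AP-1 in Vmn1r it lay on 1 of 22, that of Vmn1r260. Every member window with a peak thus held the PU.1 or the AP-1 letters. GGGCGG (SP factors, common at CpG-rich starts) was in 0 of 323 member windows, which allows up to 0.929%, and in 47.0% of all windows. TATAAA was in 35.3% of member windows and 12.7% of all. TTGCNNCAA (C/EBP) was in 1.86% and 1.76%, and TCCC and GGGA with 2 bases between them (EBF, a factor of sensory neurons and B cells) in 0 and 0.981%. Matches of different motifs overlapped in 1 member window.

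Away from their starts, the members were not free of peaks. In the untreated list 257 of 354 members had a peak assigned (72.6%, interval 67.7 to 77.0%), against 69.2% of all protein-coding genes. In the R848 list 169 had one (47.7%, interval 42.6 to 52.9%), against 64.7%. Thus the untreated share was close to the background and the R848 share below it. No peak in either list was found for 74 members (20.9%), against 19.8% of all genes. Both lists had a peak at 146 members, the untreated list alone at 111 and the R848 list alone at 23. Peaks with no overlap in the other list were found at 251 members in the untreated list (70.9%), against 56.1% of all genes, and at 152 in the R848 list (42.9%), against 48.7%. The 74 include 3 members, Vmn2r122 among them, that the gene table places ahead of the first peak of any chromosome.

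The ratio of untreated to R848 peaks was larger at the members than over all genes, though not larger than in several related families. There were 2.82 untreated peaks for each R848 peak at members and 1.53 at all protein-coding genes. The ratio was 3.54 at olfactory (967 and 273 peaks) and 2.79 at bitter taste receptors (53 and 19). It was 4 at trace amine (4 and 1) and 0.6 at formyl peptide receptors (6 and 10), and 5 at H2-Mv genes (25 and 5). The ratios of the trace amine, formyl peptide and H2-Mv genes rest on few peaks. Territory is the length of genome whose nearest protein-coding gene end within 100 kb is a member's, and it came to 21.5 Mb. Untreated peaks stood at 38.8 per Mb of it (interval 36.2 to 41.5), against 28.0 per Mb for all genes. With lists of equal length the member value was 15.6 per Mb (interval 13.99 to 17.4), which reaches the 14.3 of all genes, and at a −log10 q of 5 the order turned, with 1.21 against 2.31. R848 peaks stood at 13.8 per Mb (interval 12.2 to 15.4), against 18.3. Without the peaks on a local background over 2 times that of the library, the untreated density was 29.0 per Mb against 24.2 for all genes. The R848 density was then 13.1 per Mb against 17.6.

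**Figure D1:**
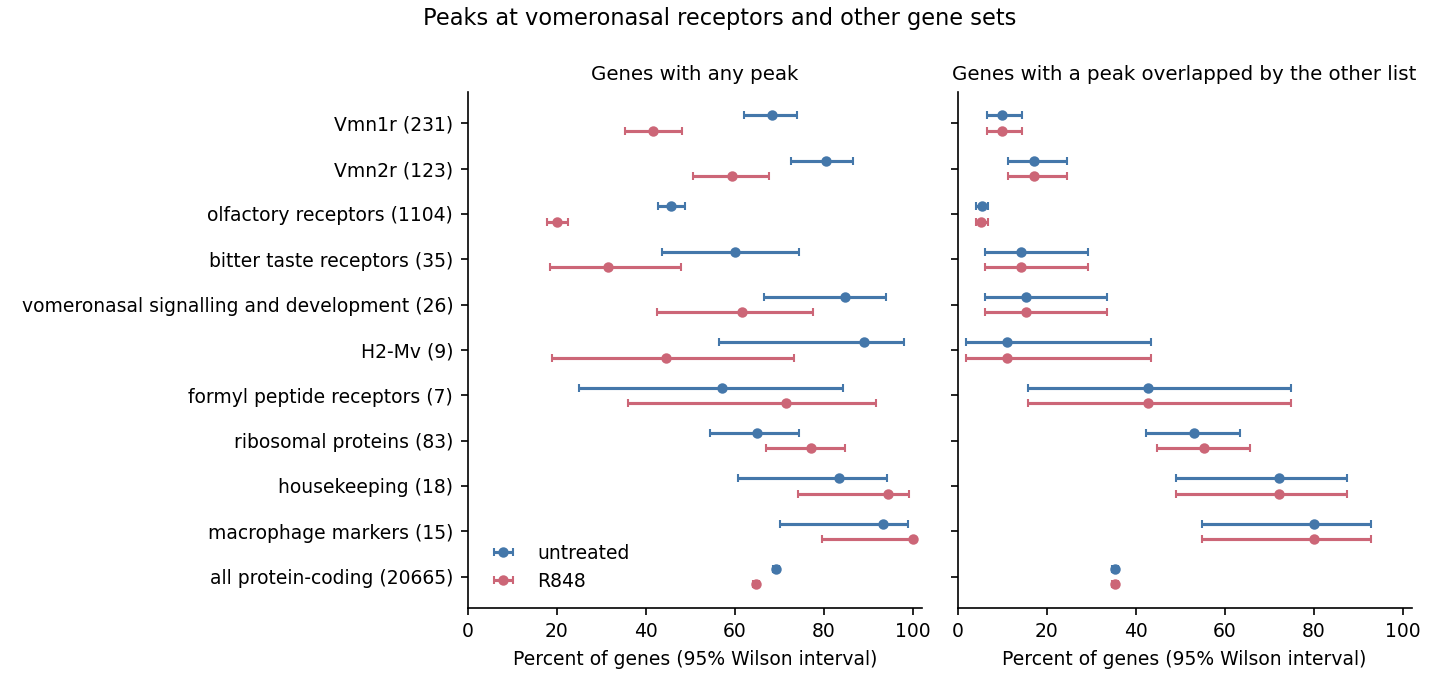
Percent of genes with any peak (left) and with a peak that one of the other list overlaps (right), for receptor families and comparison lists with the number of genes in parentheses; points are shares in the untreated (blue) and R848 (red) lists and bars 95% Wilson intervals. Vmn1r genes had a peak in 68.4% and 41.6% of cases and Vmn2r genes in 80.5% and 59.3%, while a shared peak was found at 9.96% of Vmn1r, 17.1% of Vmn2r and 35.4% of all genes.

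Vmn2r genes had a peak more often than Vmn1r genes, while their density was no higher. In the untreated list 99 of 123 Vmn2r (80.5%) and 158 of 231 Vmn1r (68.4%) had one, and in the R848 list 73 (59.3%) and 96 (41.6%). Vmn2r models have a median length of 24544 bp and Vmn1r models of 924 bp. Per Mb the order was the other way, with 36.6 for Vmn2r (interval 33.3 to 40.2) and 41.4 for Vmn1r (37.5 to 45.7) in the untreated list, and 11.7 (9.86 to 13.8) and 16.3 (13.8 to 19.01) in the R848 list. The untreated intervals overlap, and the R848 intervals meet at their edges. The R848 order rests on 1 array of Vmn1r genes, from Vmn1r91 to Vmn1r183: without it the other 145 Vmn1r genes had 66 R848 peaks, 9.95 per Mb (interval 7.70 to 12.7), and 38.9 per Mb (34.3 to 43.96) in the untreated list. Peaks per member ranged from 0 to 13 in the untreated list, with 97 members at 0, and from 0 to 6 in the R848 list, with 185 at 0.

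Members had few peaks at the gene ends, where the peak density of other genes was highest. Within 1 kb of a gene end the members had 13 peaks in each list, 10.96 per Mb (interval 5.84 to 18.7), while all other protein-coding genes had 83.0 per Mb in the untreated and 106.7 per Mb in the R848 list. These 13 peaks were 1.56% of the members' untreated peaks, against 14.1% for all genes, and 4.39% of their R848 peaks, against 27.6%. Beyond 2 kb the members had 41.9 untreated peaks per Mb (interval 39.0 to 44.8) against 25.3 at other genes, and 14.2 R848 peaks per Mb (interval 12.6 to 15.99) against 13.6. Beyond 2 kb the R848 density was thus within counting error of that of other genes, while the untreated density was higher. The R848 value leans on the array from Vmn1r91 to Vmn1r183, described below, without which it was 11.8 per Mb (interval 10.23 to 13.58), against 13.56 for other genes, with 40.2 (37.2 to 43.4) in the untreated list. The olfactory receptors also had few peaks within 1 kb, with 10.8 and 6.71 per Mb. Beyond 2 kb they had 38.7 untreated peaks per Mb and 10.25 R848 peaks per Mb (interval 8.98 to 11.6), which is below other genes.

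**Figure D2:**
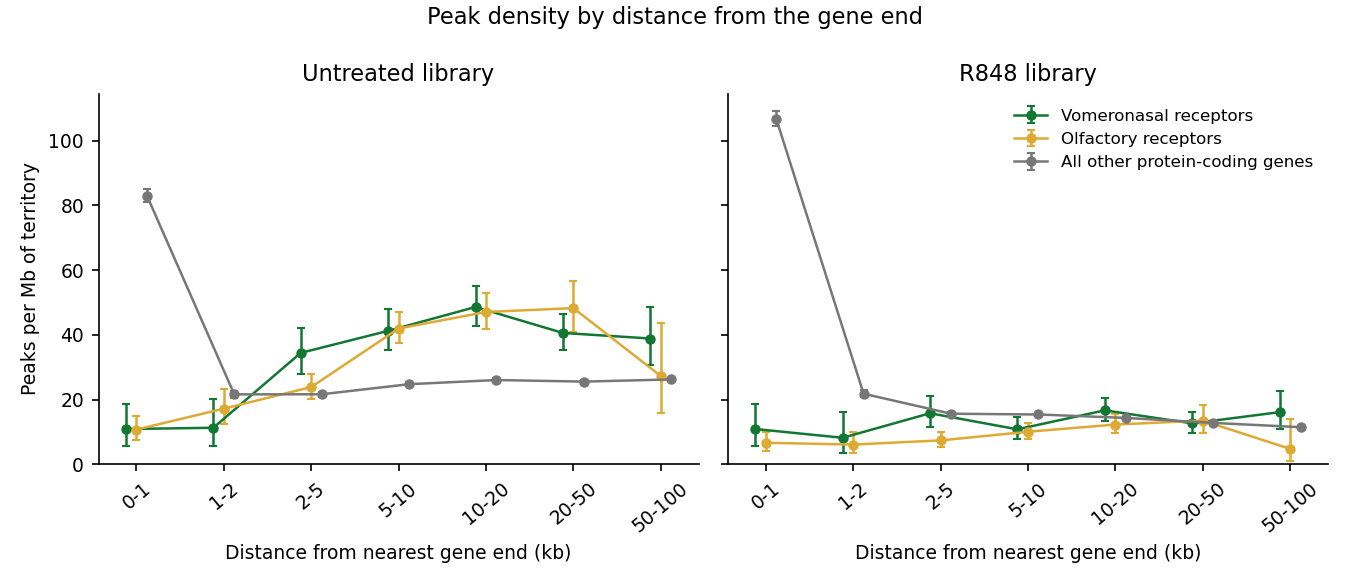
Peaks per Mb of territory (y axis) against distance of the summit from the nearest gene end in kb (x axis), for members (green), olfactory receptors (yellow) and all other protein-coding genes, olfactory receptors included (grey), with 95% Poisson bars. Other genes peak at 0 to 1 kb, at 83.0 and 106.7 per Mb, where members have 10.96 in both lists.

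Where strand was known, the same was seen on the upstream side. In the 1 kb upstream of the annotated start, 322 members had 4 untreated peaks (12.4 per Mb, interval 3.38 to 31.8) and 2 R848 peaks (6.21 per Mb, interval 0.752 to 22.4). Other genes with a known strand had 165 and 211 per Mb there. In the 1 kb beyond the end, members had 0 untreated peaks, which allows up to 9.32 per Mb, and 5 R848 peaks (15.5 per Mb, interval 5.04 to 36.2), against 18.99 and 15.6 per Mb.

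Near-end peaks of members were small apart from the R848 peak of Vmn2r29. By fold the strongest untreated one was at Vmn1r23, with 10 tags and a fold of 5.45 at 414 bp from the gene end. Those of Vmn2r29 (12 tags, fold 4.96) and Vmn2r129 (12 tags, fold 4.11 at 855 bp) followed. In the R848 list the next after Vmn2r29 were at Vmn1r48 (8 tags, fold 3.57), Vmn1r240 (10 tags, 3.53) and Vmn1r142 (8 tags, 3.52). Of the 13 near-end R848 peaks, 10 lay in the single cluster from Vmn1r91 to Vmn1r183. Without that cluster 3 of 205 R848 peaks were within 1 kb (1.46%). Vmn2r29 was the only member with near-end peaks that overlapped between the lists.

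Peaks inside genes were mostly in the longer Vmn2r genes, with 90 of 434 untreated Vmn2r peaks and 5 of 400 untreated Vmn1r peaks. The summit lay inside the assigned member for 94 untreated peaks (11.3%) and 24 R848 peaks (8.11%), while 42.9% and 51.6% of all assigned peaks lay inside a protein-coding gene. Vmn2r77 had the strongest one in both lists, at chr7:86806439-86806800 with 19 tags and a fold of 10.16 untreated, and at chr7:86806440-86806793 with 15 tags and a fold of 6.78 after R848. This site is 5413 bp from the gene end, on a local background equal to the library's own in both lists. Untreated peaks without an R848 counterpart followed inside Vmn2r27 (12 tags, fold 6.57), Vmn2r13 (20 tags, fold 6.48), Vmn2r99 (10 tags, fold 5.59), Vmn2r61 and Vmn2r95 (9 tags, fold 5.08 each), Vmn2r7 (10 tags, fold 4.70) and Vmn2r-ps130 (8 tags, fold 4.57). After R848 the next were inside Vmn2r36 (9 tags, fold 4.20), Vmn2r60 (9 tags, fold 3.97), Vmn2r96 and Vmn2r97 (8 tags, fold 3.81 each). Vmn2r-ps130 carries a pseudogene's symbol and is protein-coding in the table used.

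The members' peaks were lower in fold and in −log10 q than those of other genes in both lists, and lower in tags in the R848 list. The median untreated peak had 7 tags and a fold of 3.27, against 7 tags and 3.56 at other genes. The median R848 peak had 7 tags and a fold of 3.24, against 8 tags and 3.79. A q of 0.05 or less was reached by 447 of 834 untreated peaks (53.6%, interval 50.2 to 57.0%), against 65.8% of all assigned peaks, and by 98 of 296 R848 peaks (33.1%, interval 28.0 to 38.7%), against 56.8%. A −log10 q of 5 or more was reached by 26 untreated peaks (3.12%, against 8.22%) at 22 members, and by 12 R848 peaks (4.05%, against 20.3%) at 7 members. At 10 tags or more there were 19.7% of untreated member peaks and 20.6% at other genes, and 12.2% of R848 member peaks and 35.2% at other genes.

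**Figure D3:**
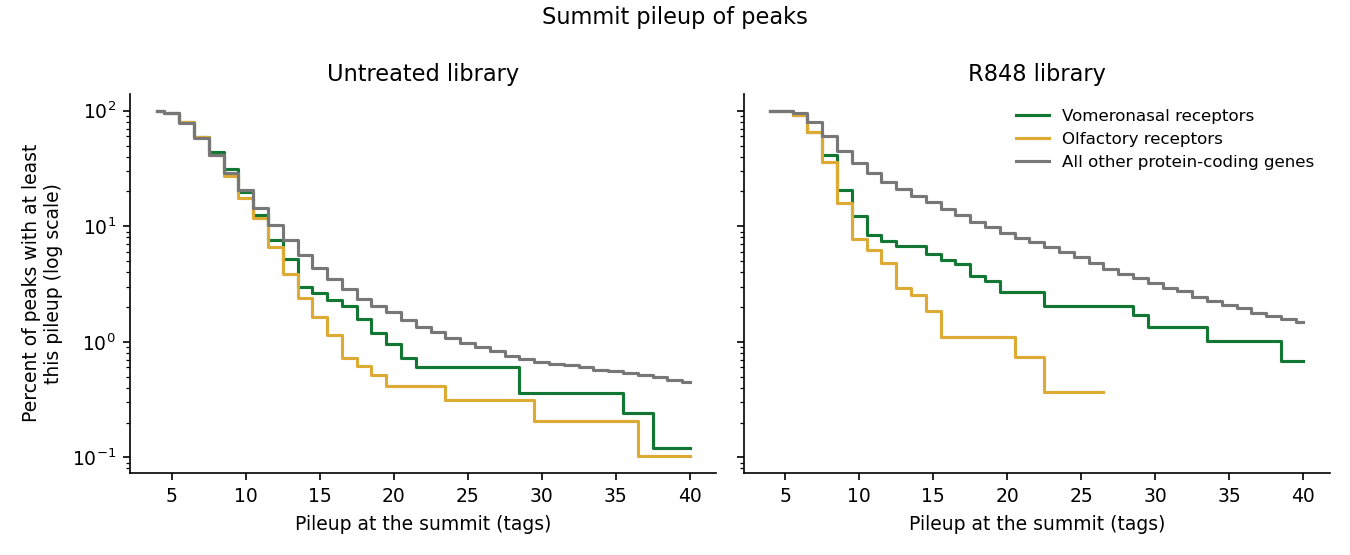
Percent of peaks (y axis, log scale) whose summit has at least the number of tags on the x axis, for members (green), olfactory receptors (yellow) and all other protein-coding genes, olfactory receptors included (grey). At 10 tags the untreated curves of members and other genes lie at 19.7% and 20.6%, and the R848 curves at 12.2% and 35.2%.

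Local background was raised more often at the members' peaks than at those of other genes, in both lists. The background solved for a peak was above the library's own for 77.6% of the members' untreated peaks and 61.5% of their R848 peaks, against 47.0% and 47.5% at other genes. It was over 2 times the library's own for 25.3% and 4.73%, against 13.5% and 3.80%. At olfactory receptors these larger backgrounds held 19.8% of untreated peaks and 0 of 273 R848 peaks, which allows up to 1.10%. The part of background, of repeated sequence and of depth in the number of member peaks was not tested.

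Few member peaks were found at the same place in both lists. Of the 834 untreated peaks 56 were overlapped by an R848 peak (6.71%, interval 5.21 to 8.62%), against 21.7% of all assigned peaks. Of the 296 R848 peaks 55 were overlapped by an untreated peak (18.6%, interval 14.6 to 23.4%), against 32.8%. Without the members on chromosome 7 the R848 share was 28.3% (interval 20.8 to 37.2%), which reaches the 32.8% of all genes, chromosome 7 included. At a −log10 q of 5 the order turned, with 9 of 12 peaks (75%) against 34.2%. When the peaks of other genes were weighted to the members' tag counts, their shares were 21.4% of untreated and 21.2% of R848 peaks. The R848 share of members was thus within counting error of peaks as strong, and the untreated share was below it. At most 6 tags, 5 of 340 untreated member peaks (1.47%) and 11.7% of others were shared, and at 10 tags or more 35 of 164 (21.3%) and 44.8%. A shared peak was found at 44 of 354 members (12.4%), against 35.4% of all genes. Olfactory receptors shared 6.72% of untreated and 23.4% of R848 peaks.

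The shared share was lower without peaks on a high background. Peaks on over 2 times the library's background were taken out of both lists. Of the rest, 21 of 623 untreated (3.37%) and 21 of 282 R848 member peaks (7.45%) were shared. Of all assigned peaks treated in the same way, 21.0% and 28.5% were shared. A peak also lost its overlap where its counterpart was taken out, so part of the fall comes from the filter itself.

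**Figure D4:**
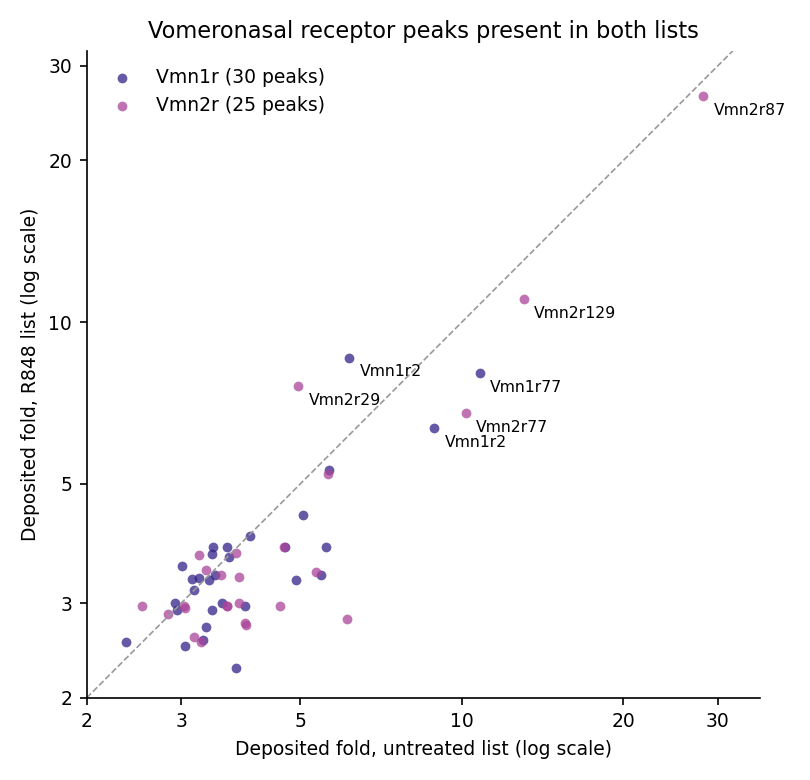
Deposited fold of each member peak found in both lists, untreated on the x axis and R848 on the y axis (log scales), with 30 Vmn1r peaks (blue) and 25 Vmn2r peaks (purple); the dashed line marks equal folds, each relative to its own library. The site assigned to Vmn2r87 stands at 28.2 and 26.3, and those of Vmn2r129, Vmn1r77, Vmn2r77, Vmn1r2 and Vmn2r29 follow.

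The strongest shared sites were not at the ends of the receptor genes. The peak assigned to Vmn2r87 at chr10:130594370-130595077 had 340 untreated and 200 R848 tags, folds of 28.2 and 26.3, on local backgrounds of 11.1 and 6.64 tags. Its summit was 97501 bp from Vmn2r87, near the edge of the reach, and 1979 bp from the ferritin pseudogene Ftl1-ps2. A reach of 50 kb would leave it out. The site assigned to Vmn2r129 at chr4:156356591-156357393 had 35 and 33 tags, with folds of 13.0 and 11.04, and its nearest gene of any kind was the pseudogene Vmn2r125, 1444 bp away. Vmn1r77's site at chr7:12010396-12010846 had 37 and 44 tags, with folds of 10.8 and 8.04, at 30645 bp from the gene. Vmn1r2 shared 5 of its 11 untreated and 5 of its 6 R848 peaks, the most of the members named here, with folds of 8.88 and 6.36 at one site and of 6.18 and 8.59 at another. A further 4 named members shared weaker sites, with R848 folds of 4.0 at Vmn1r39 and 3.81 at each of Vmn1r221, Vmn1r26 and Vmn1r60.

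Strong peaks found in 1 list were also distant. Vmn2r21 had an untreated peak of 21 tags and a fold of 8.94 at 16752 bp from the gene, with no R848 peak on it. An R848 peak of 19 tags and a fold of 7.25 lay 44884 bp from Vmn2r87, with no untreated peak on it.

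The highest numbers of untreated peaks were at 6 members, 5 of them on chromosome 7, which holds 178 of the 354 members (50.3%). Of the 11 members with 9 or more, 6 were on that chromosome. Vmn2r46 and Vmn2r36 had 13 each, and Vmn2r45, Vmn2r37, Vmn2r58 and Vmn1r238 had 12 each, the last of these on another chromosome. Their R848 peaks numbered 1, 5, 3, 3, 2 and 3 in the same order. Few of the untreated peaks at these 6 were shared, with 0 at Vmn2r46, Vmn2r36 and Vmn2r37, 1 at Vmn2r45 and 2 at Vmn2r58 and Vmn1r238. The most R848 peaks were 6 at Vmn1r2 and at Vmn1r131, and 5 at Vmn2r36 and Vmn2r97. Vmn1r131 had more R848 peaks than untreated ones, which numbered 3.

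Vomeronasal receptor genes lie in arrays, and joining members less than 1 Mb apart gave 26 clusters. Of these, 9 had 10 genes or more and held 290 members. Untreated density ranged from 23.0 to 53.1 per Mb over these large clusters. R848 density lay between 4.85 and 13.6 per Mb in 8 of them. In the ninth, the array of 86 Vmn1r genes from Vmn1r91 to Vmn1r183 on chromosome 7, it was 30.1 per Mb (interval 24.2 to 36.9). This array had 142 untreated and 91 R848 peaks, a ratio of 1.56, while the other clusters had 692 and 205. Its R848 peaks were weak, with a median of 7 tags and 29.7% at a q of 0.05 or less, and 8 of the 91 were shared.

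Among the clusters of 10 genes or more, the array also stood apart in R848 background and in sequence. The local background was above the library's own at 93.4% of its R848 peaks, with a median of 1.72 tags, against 47.3% at the other clusters. In the untreated list its share, 92.3%, was like the 92.7% of the cluster from Vmn1r55 to Vmn1r65. The small clusters of Vmn2r129 and Vmn1r238, with 4 and 3 R848 peaks, had 100% and higher R848 medians, 3.4 and 4.62 tags. Of the array's 83 start windows, 52 were identical to that of another member, against 10 of the remaining 240 windows. The part of repeated sequence in its peak count was not tested. Without the array the members' R848 density was 11.1 per Mb (interval 9.63 to 12.7), against 18.3 for all genes.

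**Figure D5:**
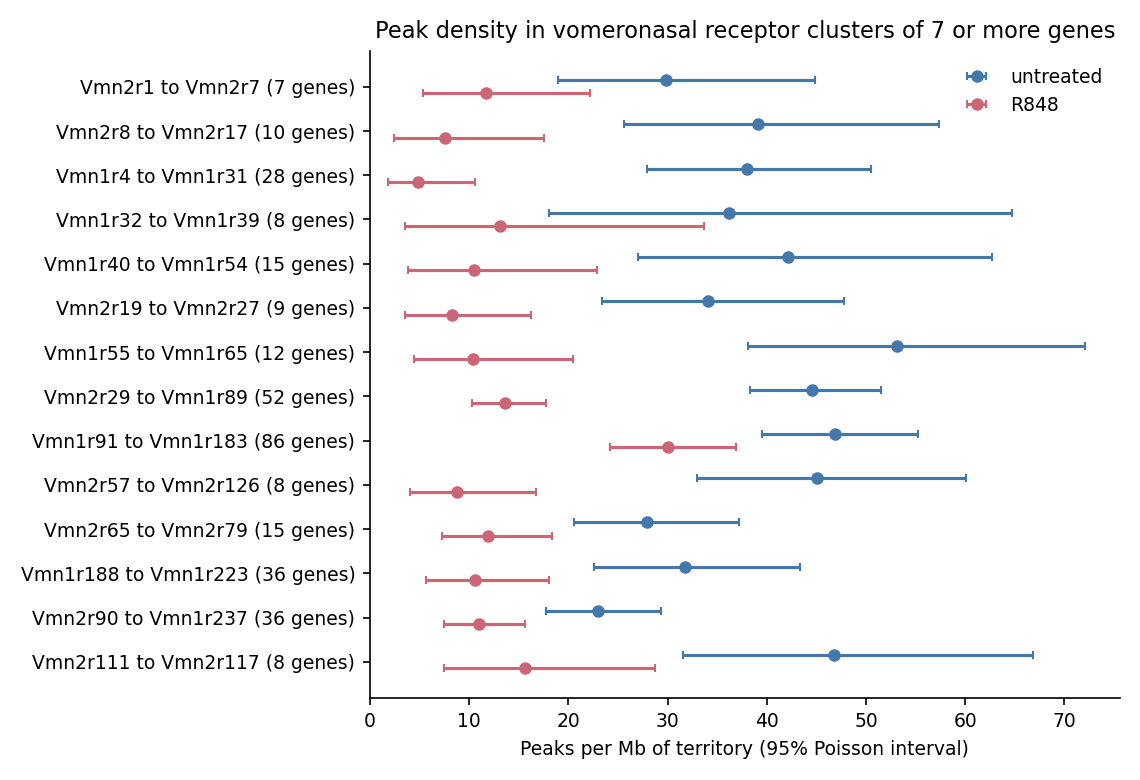
Peaks per Mb of territory (x axis) in each vomeronasal receptor cluster of 7 or more genes (rows, named by first and last gene), for the untreated (blue) and R848 (red) lists with 95% Poisson bars. The array from Vmn1r91 to Vmn1r183 has an R848 density of 30.1 per Mb, while the other clusters of at least 10 genes lie between 4.85 and 13.6.

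Genes that act with the receptors in vomeronasal neurons gave a mixed picture. Of 26 genes of vomeronasal signalling and development, 22 had an untreated peak (84.6%, against 69.2% of all genes) and 16 an R848 peak (61.5%, against 64.7%). Of their 83 untreated peaks 7 were shared (8.43%, against 21.7%). Trpc2, Omp, a protein of mature sensory neurons, and Gng8, a G protein subunit of these neurons, each had 1 untreated and no R848 peak. Gnao1 had 8 untreated and 6 R848 peaks, of which 2 and 3 were shared. Gnai2, which macrophages also use, had 5 and 3, of which 2 in each list were shared. Ano2, a calcium-gated chloride channel, had 10 and 3 with 2 shared, and Gnb1, a widely used G protein subunit, had 1 in each list, which overlapped.

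Families that share the vomeronasal organ or the chemosensory task were counted in the same way, to be read against 69.2% of all genes in the untreated and 64.7% in the R848 list. Of 9 H2-Mv genes, class I-like genes known from Vmn2r neurons, 8 had an untreated (88.9%) and 4 an R848 peak (44.4%). Of 7 formyl peptide receptors, 4 had an untreated (57.1%) and 5 an R848 peak (71.4%). Among them Fpr1 and Fpr2, which sense bacterial peptides on phagocytes, had 1 untreated peak each and 4 and 3 R848 peaks, with folds up to 6.25 and 9.55. Of 35 bitter taste receptors, 21 (60%) and 11 (31.4%) had a peak, of 15 trace amine receptors 4 (26.7%) and 1 (6.67%), and of 1104 olfactory receptors 505 (45.7%) and 221 (20.0%).

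Gene lists of common use differed from the receptors in the shared share. Housekeeping genes shared 17 of 27 untreated peaks (63.0%), ribosomal protein genes 48 of 99 (48.5%) and macrophage markers 17 of 59 (28.8%). The 354 vomeronasal receptors, with 6.71%, were lower than each of these, and level with the olfactory receptors.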

How the data were processed

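ATAC-seq peak lists of 1 untreated and 1 R848 library were used, 1 file for each. Per the submitters' processing notes, bcl2fastq 2.19, Bowtie2 2.2.6 and MACS2 2.2.7.1 were run on mm10; settings, read filters and the treatment of duplicates and multiple matches are not stated there. The authors deposited for each peak a score (not used), a fold over background (a ratio), the −log10 p and −log10 q values and the summit. No read counts were used, so the depth is unknown beyond what follows.

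Members and gene lists were chosen with earlier results of these data known. Pileup and background were solved from the deposited fold and p, to within 0.1% of the −log10 p, for 99.97% of peaks. Peaks were shared where they overlapped by 1 bp. Gene ends and biotypes came from the RefSeq table of the build, and strand from its start windows. Shares were set beside all peaks assigned to a gene, in place of the planned set of all peaks on chromosomes 1 to 19, of which 16.5% of untreated and 30.5% of R848 peaks were shared. Scripts were tested on simulated data and used pandas 2.3.3, numpy 2.4.6, matplotlib 3.10.9 and scipy 1.17.1 under Python 3.11.15. Wilson and exact Poisson intervals at 95% were used, and no p-value was computed.

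Members were named for the 6 highest peak counts or folds in a list, for a peak in both lists (up to 10), or for a summit inside the gene or within 1 kb of its end (up to 10 per list, by fold). Vmn1r260, Vmn1r242, Vmn2r122, the near-end examples and the windows shown were chosen after their values were seen. Alternatives covered reach, competing genes, thresholds, list length, overlap and chromosomes.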

Additional observations from a re-analysis of the deposited data

How the results depend on the processing

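No paired analysis was possible because each group had 1 library, and for the same reason no library could be left out. Of 112 alternatives, 41 moved, 8 reversed and 63 kept their direction and value within counting error; in 6 of the 63 the member value could not move by construction (equal lengths leave the R848 list whole, and the comparison at equal tags changes the other genes alone); the cause was not tested unless the alternative by its construction has fewer peaks or genes. The removal of high-background peaks and of the Vmn1r91 to Vmn1r183 array were chosen after seeing the data. Leaving out chromosome 7 took out its members alone, so the values of all genes beside it still include that chromosome. Values are untreated, then R848, where both moved.

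The share of members with a peak was 72.6% and 47.7%. In the untreated list it turned below that of all genes at a −log10 q of 5 (6.21%, all genes 15.4%), for summits inside genes (15.5%, 42.8%), for lists of equal length (51.7%, 53.2%), at a q of 0.05 (58.8%, 60.3%), without high-background peaks (63.8%, 66.9%) and without chromosome 7 (68.2%, 69.2%), so its direction is not settled. It moved to 66.4% and 38.7% at 20 kb and to 60.2% and 33.9% with genes of every kind. The R848 share stayed below that of all genes: 1.98% at a −log10 q of 5, 6.21% for summits inside genes, 21.5% at a q of 0.05 and 36.9% without chromosome 7.

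Density (38.8 and 13.8 per Mb) moved to 26.6 and 6.92 inside genes, 20.8 and 4.56 at a q of 0.05, and 34.5 and 10.48 without chromosome 7. At a −log10 q of 5 it was 1.21 (all genes 2.31, reversed) and 0.558. Untreated density was 15.6 with lists of equal length (all genes 14.3) and 29.0 without high-background peaks, and R848 density 11.1 without the array.

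The shared share (6.71% and 18.6%) moved to 9.59% and 25.3% where peaks up to 500 bp apart counted, 3.12% and 12% inside genes, 12.5% and 14.2% with lists of equal length, 3.37% and 7.45% without high-background peaks, 8.87% and 28.3% without chromosome 7 (all genes 21.7% and 32.8%), and to 25.5% at a q of 0.05 in the R848 list. At a −log10 q of 5 it was 34.6% and 75% (9 of 12 peaks, all genes 34.2%, reversed). Where an alternative removed peaks, overlap was counted afterwards, so a peak also lost its overlap when its counterpart was removed.

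The share within 1 kb of a gene end (1.56% and 4.39%) moved to 0% (0 of 26, which allows up to 11.5%) and 8.33% at a −log10 q of 5, 6.25% and 24.0% inside genes, and 2.68% and 7.74% with genes of every kind; the R848 share was 1.46% without the array and 0.885% without chromosome 7. The untreated share at a q of 0.05 (53.6%) moved to 62.5% inside genes, 59.1% without chromosome 7 and, by construction, 100% with lists of equal length. Strength was not recomputed under the q thresholds, which fix it. Peaks of 4 to 7 tags and the 1 library in each group were limits of precision throughout.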

Other observations

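Vmn2r121, the member family's gene on the X chromosome, had 5 untreated peaks and no R848 peak, and none was shared. The 269 vomeronasal receptor pseudogenes on chromosomes 1 to 19 were counted with genes of every kind competing for a peak. They had 299 untreated peaks (38.6 per Mb, interval 34.4 to 43.3) and 127 R848 peaks (16.4 per Mb, interval 13.7 to 19.5). The receptor genes counted in the same way had 485 (39.3 per Mb, interval 35.9 to 43.0) and 168 (13.6 per Mb, interval 11.6 to 15.8), so the intervals of genes and pseudogenes overlapped in both lists. Of the pseudogenes' peaks, 34 untreated (11.4%) and 34 R848 (26.8%) were shared, and of the genes' peaks 29 (5.98%) and 29 (17.3%).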
